A study of Mus musculus with 9 samples.

Results

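The genes of the Wnt pathway that make, receive and restrain the Wnt signal were followed through 24 hours of asporin treatment in the mouse prostate cancer line MyC-CaP. They were picked by a rule on gene names, which uses no measured value: every Wnt, Frizzled (Fzd), Dickkopf (Dkk), secreted Frizzled-related (Sfrp) and Tle gene, with Porcn, Wls, Lrp5, Lrp6, Lgr4, Lgr5, Lgr6, Znrf3, Rnf43, Apc, Axin1, Axin2, Ctnnb1, Tcf7, Tcf7l1, Tcf7l2 and Lef1. The rule found 45 of the 15384 genes in the count table, of which 33 passed the filter on low counts in at least 1 comparison and 12 in none (0 to 11 counts per library). Axin2 and other family members that the rule would take but the table does not list, among them Fzd1, Fzd8, Dkk1 and Sfrp1, were not analysed here.

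MyC-CaP cells come from a prostate tumor of a mouse with a MYC transgene, and asporin (ASPN) is a small leucine-rich protein that stromal fibroblasts secrete. RNA-Seq counts of 9 libraries were used, 3 for cells collected at 0 h, 3 at 12 h and 3 at 24 h, from cells of a single line plated in triplicate wells. All 3 groups shared a starvation of 6 to 12 h in medium with neither serum nor calcium. The labels call every library ASPN-treated, those of 0 h included, and the protocol gives recombinant ASPN (rASPN) at 100 ng/mL. Libraries of cells kept 12 or 24 h with buffer in place of rASPN are not among the 9, so rASPN and the hours in culture cannot be told apart in any comparison below. Nothing in the labels says more of the replicates than that they are biological, and the p-values measure the spread between these libraries.

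The libraries held 41881191 to 52993821 counts on the genes of the table. A count of 3, the floor used here, was worth 0.0566 to 0.0716 CPM, the usual unit of counts scaled for library size. The labels call the cells prostate cancer epithelial-like, and the markers bore this out in part: of the luminal prostate markers given here, Hoxb13 and Krt8 had a mean of at least 1 CPM, whereas Epcam (0 to 1 counts per library), Cdh1 (0 to 10 counts), Tmprss2 (0 to 1 counts) and Krt18 (2 to 22 counts) were at or near 0. Of 4 basal epithelial markers, Krt15 alone passed 1 CPM, with means of 108, 115 and 118 CPM at 0, 12 and 24 h. That was above Krt8, with means of 25.4, 26.4 and 38.1 CPM. The other basal markers, Krt5, Krt14 and Trp63, had means under 1 CPM. Of the fibroblast markers, 3 were in the table and Pdgfra alone passed 1 CPM, with a summed level of 12.9 to 14.1 CPM at 0 h and 9.12 to 10.3 CPM at 24 h. Endothelial markers, and likewise immune markers, summed to less than 1 CPM in every library.

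Wnt proteins are secreted lipid-modified ligands. The acyltransferase Porcn attaches the lipid, Wls carries the ligand to the cell surface, and the ligand binds a Frizzled receptor with the co-receptor Lrp5 or Lrp6. In the canonical branch this halts the destruction complex of Apc, Axin and kinases, so that beta-catenin (Ctnnb1) accumulates and joins DNA-binding factors of the TCF/LEF family, which otherwise hold target genes off together with Tle corepressors. The ligases Znrf3 and Rnf43 remove Frizzled from the membrane, and R-spondins bound to Lgr4, Lgr5 or Lgr6 block that removal. In the prostate the pathway is known for its part in budding of the gland and, in tumors, for a link to therapy resistance.

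At 24 h most of the Wnt pathway genes that these cells transcribed were lower than at 0 h, across ligands, receptors, co-receptors and nuclear factors alike. Of 31 members that passed the filter on low counts in this comparison, 18 were called lower and 3 higher, where called means an adjusted p (edgeR's quasi-likelihood test, Benjamini-Hochberg) no higher than 0.05 together with a change of at least 1.5-fold. The share called lower was 58.1%, against 16.8% of all 11444 genes tested, and the share called higher was 9.68%, against 12% of all genes. The median log2 difference of the 31 members was -0.73, and that of all genes tested was -0.02. In 22 members the 24 h libraries lay wholly below the 0 h libraries and in 4 wholly above, where 38% and 35.9% of all genes did so. Tested against 1.5-fold itself, with edgeR's glmTreat, the 24 h calls of Wnt3, Wnt7b, Wnt9a, Porcn and Fzd7 and both calls at 12 h were lost. Because the samples are bulk RNA, fewer cells that express a gene and less of its RNA per cell cannot be told apart.

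At 12 h little of this was present. Of 33 members tested, 2 were called lower, Fzd4 and Tle2, and 0 higher, where 0.0964% and 1.5% of all 11410 genes tested were called. DESeq2 and limma-voom each called the same 2 genes. With the adjusted p alone, 7 of the 33 members passed, 2 of them higher and 5 lower, where 1178 of the 11410 genes did (782 higher, 396 lower). An unadjusted p under 0.05 was found for 15 of the 33 members and 2437 of the 11410 genes. The 12 h libraries lay wholly below those of 0 h in 12 members (13.4% of all genes did so) and wholly above in 4 (13.7% of all genes). From 12 to 24 h, 12 of 31 members were called lower, against 15.3% of 11394 genes tested, and 2 higher, against 10.4%. The libraries of those times did not overlap in 18 members that were lower at 24 h (38.1% of all genes) and in 4 that were higher (35.7% of all genes). The comparisons share their 0 h or 12 h libraries, so their values are set side by side and not correlated.

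**Figure D1:**
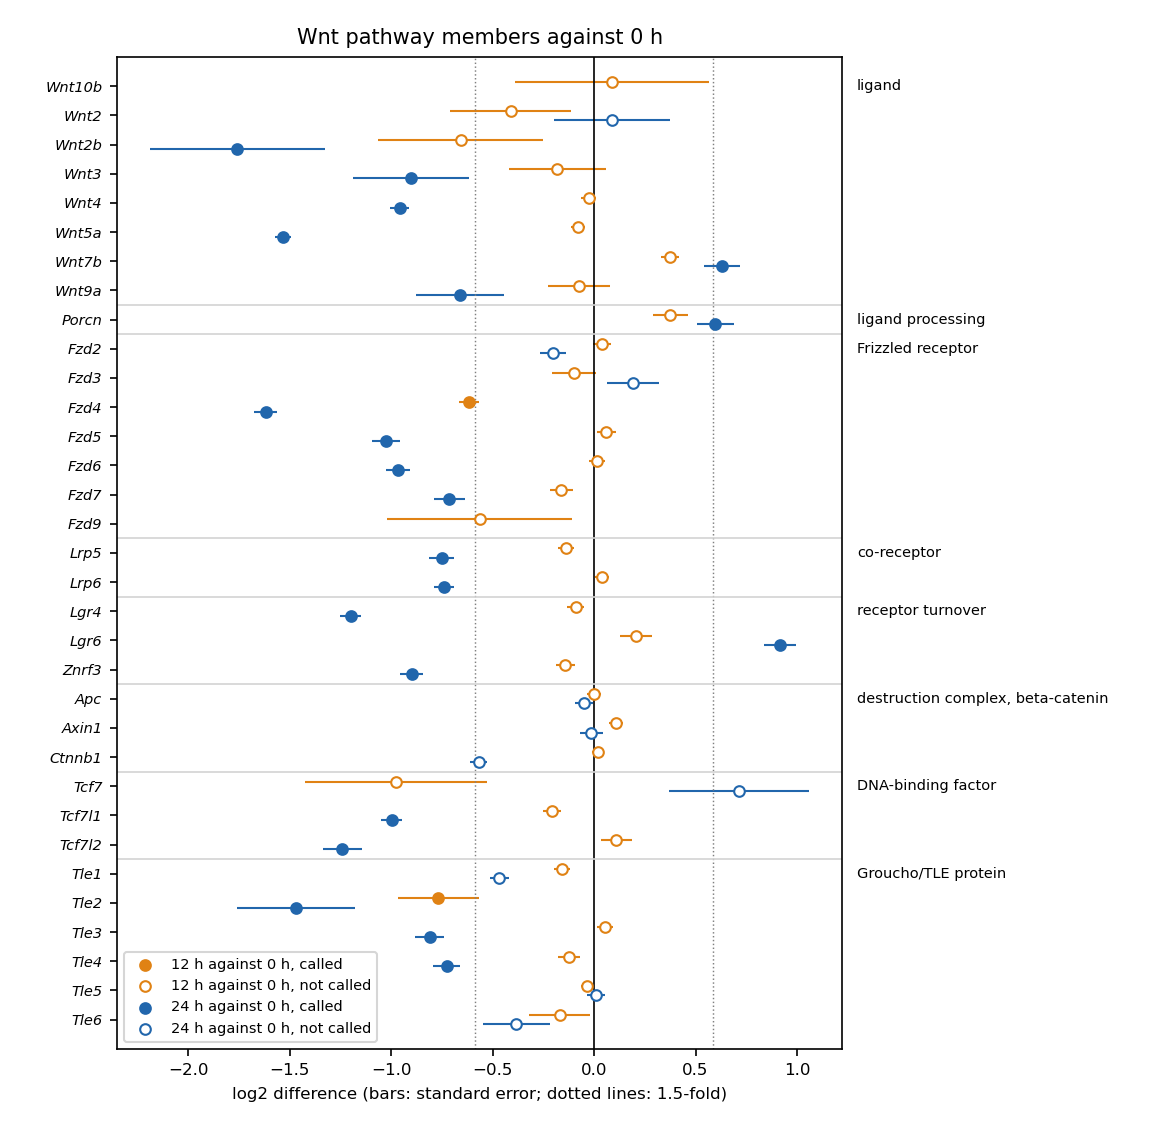
Log2 difference against 0 h (x axis) of each member tested at 12 h (orange) or 24 h (blue), grouped by role, with bars for the standard error of the fit on 3 libraries per time, filled points for called genes and dotted lines at 1.5-fold. Most orange points lie close to 0, and at 24 h 18 members are called lower while Wnt7b, Porcn and Lgr6 are called higher.

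Among the ligands, Wnt4 and Wnt5a fell and Wnt7b rose. The table lists 13 Wnt genes, and Wnt4, Wnt5a and Wnt7b made up nearly all of their RNA. Wnt4, a ligand best known from kidney and reproductive tract development (chr4:137277489-137299726, GRCm38), stood at 269, 245 and 250 CPM in the 0 h libraries, at 254, 251 and 243 CPM at 12 h and at 127, 129 and 137 CPM at 24 h. The 0 h and 12 h libraries overlapped, and all 24 h libraries lay far below both. The log2 difference at 24 h was -0.96 ± 0.05 (SE, n = 3 per time), a 1.94-fold drop (edgeR quasi-likelihood test with Benjamini-Hochberg adjustment, hereafter edgeR adjusted p, 1.5e-09), and at 12 h it was -0.03 (edgeR adjusted p = 0.75).

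Wnt5a, the prototype of ligands that act mostly without beta-catenin (chr14:28504750-28527448), had 237, 226 and 224 CPM at 0 h, 219, 212 and 217 CPM at 12 h and 78.0, 79.2 and 80.2 CPM at 24 h. The libraries of 24 h were close together and well below the rest, and those of 12 h lay just below those of 0 h. At 24 h 34.6% of the 0 h level was left (log2 difference -1.53 ± 0.04, edgeR adjusted p = 8.82e-12), whereas the 12 h difference of -0.08 did not pass (edgeR adjusted p = 0.167). Wnt7b, an epithelial ligand that can act through beta-catenin (chr15:85535437-85582473), went the other way, with 77.3, 70.9 and 70.0 CPM at 0 h, 90.8, 98.0 and 93.2 CPM at 12 h and 93.0, 128 and 117 CPM at 24 h. Every library of 12 and 24 h lay above those of 0 h, and the 24 h libraries spread more widely than the others. The log2 difference was 0.37 ± 0.04 at 12 h (edgeR adjusted p = 9.08e-06, short of 1.5-fold) and 0.63 ± 0.09 at 24 h (edgeR adjusted p = 2.64e-05). That 24 h call was close to the 1.5-fold limit: it was lost without replicate 2 of 24 h (log2 difference 0.53) and with scaling to total counts (0.41), a scaling that moved the median of all genes to -0.24.

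Per kilobase of exon, which allows levels of different genes to be compared, Wnt4 led at each time, with 60.8 CPM per kb at 0 h and 31.3 at 24 h. Wnt5a was ahead of Wnt7b at 0 h (29.3 and 14.8 CPM per kb) and behind it at 24 h (10.1 and 23.0). As a share of the summed CPM per kb of all 13 ligands, Wnt7b went from 13.9% ± 0.2 (SD, n = 3) at 0 h to 17.8% ± 0.69 at 12 h and 34.9% ± 3.4 at 24 h, and Wnt5a from 27.5% ± 0.45 to 25.6% ± 0.57 and 15.5% ± 0.9. The share of Wnt4 was 57.0% ± 0.45, 55.2% ± 0.65 and 47.8% ± 2.61. A gain of one share in such a sum lowers the others, so these are a description of composition. The summed CPM of the 13 ligands was 562 ± 23.0 at 0 h, 564 ± 5.3 at 12 h and 326 ± 21.6 at 24 h (SD, n = 3).

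The other ligands were near the floor of detection or a little above it. Wnt3, a canonical ligand, had 1.45, 1.33 and 1.17 CPM at 0 h, 0.787, 1.14 and 1.55 CPM at 12 h and 0.981, 0.705 and 0.444 CPM at 24 h, so that 12 h overlapped both other times and 24 h lay below 0 h. Its call at 24 h (log2 difference -0.90 ± 0.29, edgeR adjusted p = 0.0123) was lost without replicate 1 of 0 h (-0.81) or replicate 3 of 24 h (-0.65). Wnt9a, a ligand known from joint and blood stem cell development, had 2.16, 2.31 and 2.62 CPM at 0 h, 2.03, 2.24 and 2.47 CPM at 12 h and 1.27, 2.01 and 1.18 CPM at 24 h. Its 24 h libraries lay below those of 0 h, one of them narrowly. The 24 h call (log2 difference -0.66 ± 0.22, edgeR adjusted p = 0.015) was lost when replicate 3 of 0 h, replicate 1 of 24 h or replicate 3 of 24 h was left out (-0.57 to -0.51), and after correcting for the length and GC content of transcripts (-0.55). Wnt2b, with 19, 21 and 28 counts at 0 h and 7, 5 and 6 at 24 h, was called lower at 24 h (log2 difference -1.76, under 1 CPM throughout), and Wnt2 (0.701, 0.527 and 0.749 CPM on average) was not called in any comparison. Wnt1, Wnt5b, Wnt6, Wnt8b and Wnt10a had 0 to 11 counts per library and Wnt10b 3 to 16.

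Porcn, the acyltransferase that Wnt proteins need for secretion (chrX:8193848-8206525), had 9.85, 11.1 and 8.83 CPM at 0 h, 12.6, 13.2 and 12.7 CPM at 12 h and 15.3, 14.7 and 15.0 CPM at 24 h. The libraries of the 3 times did not overlap, each time above the one before. Its log2 difference was 0.37 ± 0.09 at 12 h (edgeR adjusted p = 0.00843, short of 1.5-fold) and 0.60 ± 0.09 at 24 h (edgeR adjusted p = 5.84e-05). The 24 h value sat at the 1.5-fold limit, and the call was lost without replicate 3 of 0 h (0.53) or replicate 1 of 24 h (0.58) and with scaling to total counts (0.38). Wls, the carrier of Wnt proteins, had a single count in 1 library and none in the other 8, which lies under the floor of 3 counts in each of them.

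**Figure D2:**
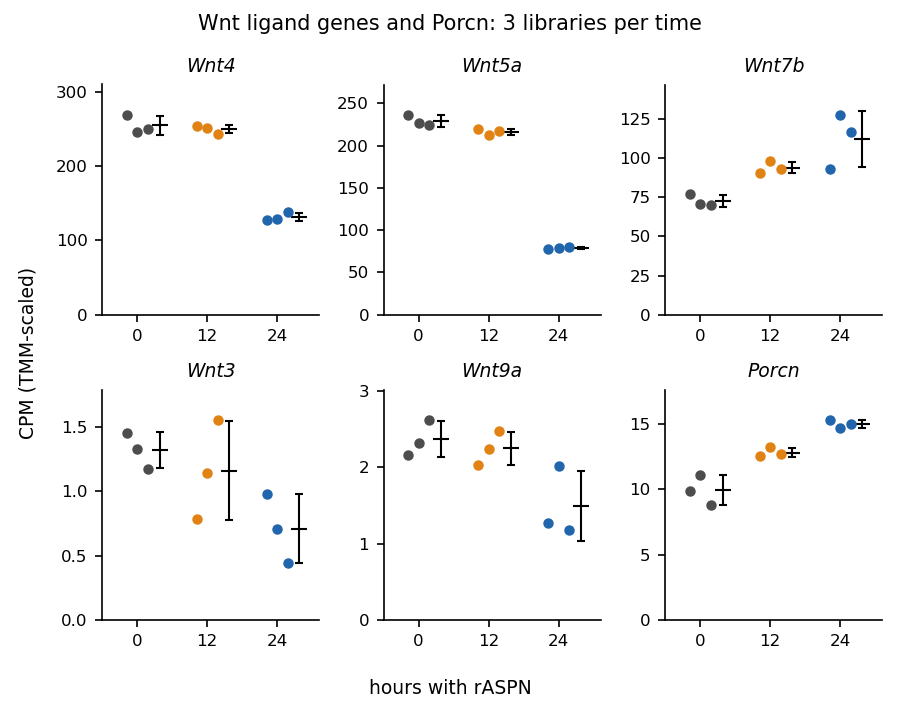
TMM-scaled CPM (y axis, from 0, its own scale in each panel) of 5 Wnt ligand genes and Porcn against hours with rASPN (x axis), with a point for each library and mean ± SD (n = 3) beside them. Wnt4 and Wnt5a drop at 24 h, to means of 131 and 79.2 CPM, while Wnt7b and Porcn stand above their 0 h libraries at both later times.

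Among the 7 Frizzled receptors in the table, Fzd4, Fzd5, Fzd6 and Fzd7 fell at 24 h, and Fzd2 and Fzd3 were not called. Fzd4, the receptor of norrin and of several Wnts (chr7:89404355-89413134), was called lower at both times, with 69.0, 67.0 and 61.2 CPM at 0 h, 40.8, 42.4 and 45.2 CPM at 12 h and 21.6, 21.2 and 21.4 CPM at 24 h. Each time was clear of the others. The log2 difference was -0.62 ± 0.05 at 12 h (edgeR adjusted p = 1.38e-07), -1.62 ± 0.06 at 24 h (edgeR adjusted p = 9.05e-11) and -0.98 ± 0.05 from 12 to 24 h (edgeR adjusted p = 3.14e-09). The 12 h value exceeded 1.5-fold narrowly: without replicate 1 of 0 h or replicate 1 of 12 h it was -0.58 and no longer called, though its adjusted p still passed.

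Fzd5, a receptor of canonical ligands, had 33.8, 32.3 and 33.3 CPM at 0 h, 34.0, 36.0 and 33.4 CPM at 12 h and 16.2, 17.7 and 14.9 CPM at 24 h. Fzd6, which is tied to planar cell polarity, had 73.0, 79.5 and 80.1 CPM at 0 h, 79.7, 77.5 and 77.3 CPM at 12 h and 42.8, 39.3 and 37.1 CPM at 24 h. In both genes 0 h and 12 h overlapped and 24 h lay well below, at log2 differences of -1.02 ± 0.07 (Fzd5, edgeR adjusted p = 2.08e-08) and -0.97 ± 0.06 (Fzd6, edgeR adjusted p = 8.42e-09). Fzd7, a receptor often studied in stem cells, had 38.9, 37.1 and 36.7 CPM at 0 h, 35.7, 30.4 and 34.4 CPM at 12 h and 19.9, 24.9 and 23.8 CPM at 24 h, each later time below the one before. Its log2 difference at 24 h was -0.71 ± 0.08 (edgeR adjusted p = 1.69e-06), which fell short of 1.5-fold after correction for length and GC content (-0.53).

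Fzd2 averaged 43.0, 44.1 and 37.3 CPM at 0, 12 and 24 h. Its 24 h libraries lay below those of 0 h, by a log2 difference of -0.20 that was short of 1.5-fold (edgeR adjusted p = 0.0136). Fzd3 averaged 4.72, 4.40 and 5.41 CPM with overlapping 0 h and 24 h libraries. Per kb, Fzd6 was the highest at 0 h (16.1 CPM per kb) ahead of Fzd2 (11.7), and at 24 h Fzd2 (10.2) stood ahead of Fzd6 (8.25). The share of Fzd2 in the summed CPM per kb of the receptors was 22.9% ± 0.72 at 0 h and 34.5% ± 2.16 at 24 h, and that of Fzd4 19.1% ± 1.23 and 10.8% ± 0.48 (SD, n = 3). Fzd9 had 2 to 18 counts per library and was tested at 12 h only, without a call.

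**Figure D3:**
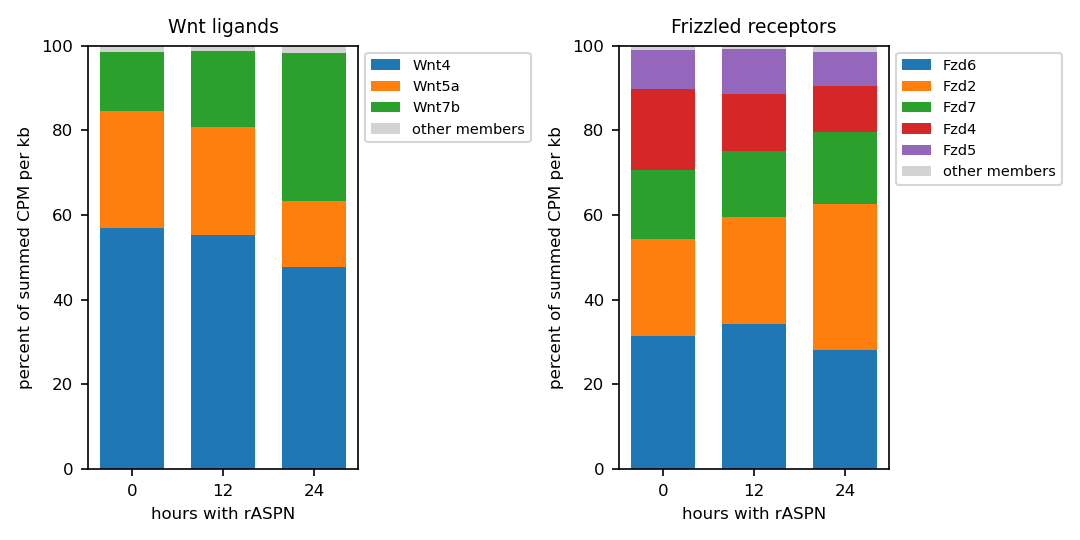
Mean share (n = 3 libraries, y axis in percent) of each gene in the summed CPM per kb of 13 Wnt ligands (left) and 7 Frizzled receptors (right) against hours with rASPN (x axis), with the scarce members pooled in grey. The Wnt7b share grows from 13.9% to 34.9% as that of Wnt5a shrinks from 27.5% to 15.5%, and Fzd2 grows from 22.9% to 34.5% as Fzd4 shrinks from 19.1% to 10.8%.

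Both co-receptors fell at 24 h. Lrp5 had 291, 262 and 266 CPM at 0 h, 241, 247 and 256 CPM at 12 h and 147, 175 and 165 CPM at 24 h, each time below the one before. The log2 difference was -0.14 ± 0.04 at 12 h (edgeR adjusted p = 0.0383, short of 1.5-fold) and -0.75 ± 0.06 at 24 h (edgeR adjusted p = 1.29e-07). The correction for length and GC content moved the 24 h value of Lrp5 to -0.32 and ended its call, and that from 12 to 24 h from -0.59 to -0.17. Leaving out replicate 3 of 12 h or replicate 1 of 24 h also ended the call from 12 to 24 h (-0.57 and -0.53), as did upper-quartile scaling (-0.57). Lrp6 had 77.6, 72.5 and 74.0 CPM at 0 h, 76.1, 76.9 and 76.8 CPM at 12 h and 43.7, 47.2 and 43.2 CPM at 24 h, so that 0 h and 12 h overlapped and 24 h lay below. Its 24 h log2 difference was -0.74 ± 0.05 (edgeR adjusted p = 2.45e-08).

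The genes that set how long Frizzled stays at the membrane split in direction: Lgr4 and Znrf3 fell and Lgr6 rose. Lgr4, an R-spondin receptor (chr2:109917647-110014257), had 57.9, 54.7 and 54.4 CPM at 0 h, 53.4, 52.8 and 50.2 CPM at 12 h and 23.6, 24.0 and 25.1 CPM at 24 h. The 12 h libraries lay narrowly below those of 0 h and the 24 h libraries far below. Its log2 difference was -0.09 at 12 h (edgeR adjusted p = 0.204) and -1.20 ± 0.05 at 24 h (edgeR adjusted p = 5.72e-10). Lgr6, which binds the same ligands (chr1:134983301-135105276), had 9.17, 9.17 and 10.3 CPM at 0 h, 10.8, 11.3 and 10.9 CPM at 12 h and 17.4, 18.5 and 18.2 CPM at 24 h, with no overlap between times. Its log2 difference was 0.21 at 12 h (edgeR adjusted p = 0.131) and 0.92 ± 0.08 at 24 h (edgeR adjusted p = 2.66e-07), and from 12 to 24 h it was 0.73 ± 0.07 (edgeR adjusted p = 3.43e-07), a call lost only with scaling to total counts (0.51). Per kb, Lgr4 was ahead of Lgr6 at 0 h (9.46 and 1.39 CPM per kb) and still at 24 h (4.12 and 2.63).

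Znrf3, the ligase that removes Frizzled, had 53.87, 52.997 and 49.98 CPM at 0 h, 49.5, 44.3 and 47.9 CPM at 12 h and 29.6, 28.2 and 26.4 CPM at 24 h, each time below the one before. At 24 h the log2 difference was -0.90 ± 0.06 (edgeR adjusted p = 1.3e-08), and from 12 to 24 h -0.73 ± 0.06, which the correction for length and GC content brought to -0.48, short of a call. Its partner ligase Rnf43 and the receptor Lgr5 had 0 to 2 counts per library. The secreted antagonists in the table were also at the floor, Dkk3 with 0 to 5 counts and Dkk4 and Sfrp4 with 0 to 1.

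**Figure D4:**
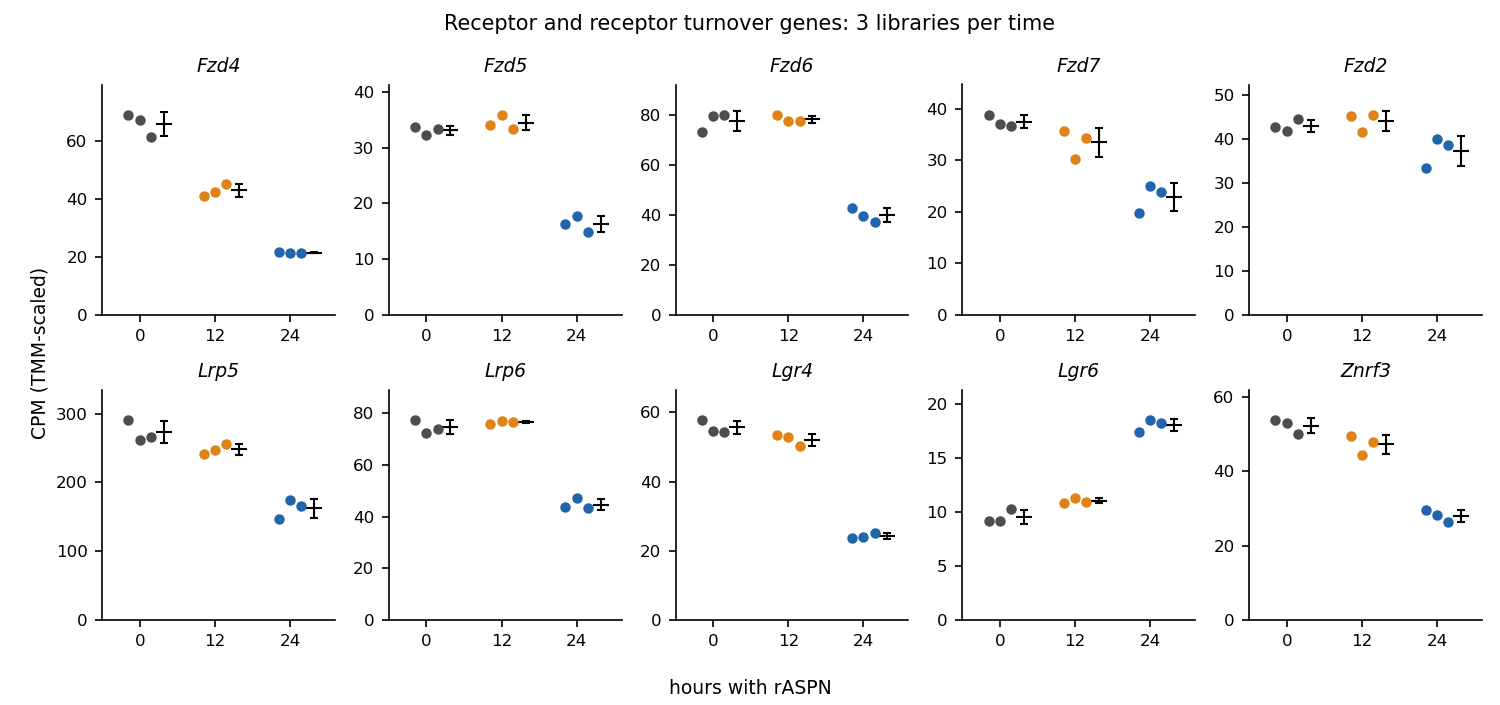
TMM-scaled CPM (y axis, from 0, its own scale in each panel) of 5 Frizzled receptors, both co-receptors and 3 genes of receptor turnover against hours with rASPN (x axis), with a point for each library and mean ± SD (n = 3) beside them. Fzd4 steps down at both times, the other genes called lower have their lowest libraries at 24 h, Lgr6 rises to a mean of 18.0 CPM, and Fzd2 stays between 33.4 and 45.6 CPM.

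The promoter windows of 28 of the 45 members were found in RefSeq (GRCm38.p6), 39 windows of 300 bases in all, each from 250 bases before to 50 after a start site. Stretches before the start sites of 4 members are printed, Fzd4 as the Frizzled receptor called at both times, Tcf7l2 as a TCF factor that fell, and Lgr4 and Lgr6 as sister receptors that moved in opposite directions. They lie at chr7:89404223-89404354 (Fzd4, + strand, 132 bases, kept to the part outside annotated exons), chr19:55741560-55741809 (Tcf7l2, + strand), chr2:109917397-109917646 (Lgr4, + strand) and chr1:135105277-135105526 (Lgr6, - strand). Each reads 5′ to 3′ on the gene's strand, with matches to the GC box in capitals.
Fzd4: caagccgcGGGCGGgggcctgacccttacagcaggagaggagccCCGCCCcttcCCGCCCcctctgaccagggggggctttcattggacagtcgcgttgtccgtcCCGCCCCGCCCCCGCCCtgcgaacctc
Tcf7l2: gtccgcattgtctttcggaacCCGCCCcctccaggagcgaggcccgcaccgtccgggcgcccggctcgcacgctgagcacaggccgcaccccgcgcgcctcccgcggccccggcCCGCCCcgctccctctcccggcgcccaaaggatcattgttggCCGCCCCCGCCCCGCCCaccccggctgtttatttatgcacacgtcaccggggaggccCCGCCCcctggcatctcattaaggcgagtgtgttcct
Lgr4: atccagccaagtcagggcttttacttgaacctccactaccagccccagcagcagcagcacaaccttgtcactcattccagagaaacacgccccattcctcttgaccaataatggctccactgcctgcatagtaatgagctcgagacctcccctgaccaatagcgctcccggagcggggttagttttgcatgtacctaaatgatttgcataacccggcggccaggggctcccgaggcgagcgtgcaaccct
Lgr6: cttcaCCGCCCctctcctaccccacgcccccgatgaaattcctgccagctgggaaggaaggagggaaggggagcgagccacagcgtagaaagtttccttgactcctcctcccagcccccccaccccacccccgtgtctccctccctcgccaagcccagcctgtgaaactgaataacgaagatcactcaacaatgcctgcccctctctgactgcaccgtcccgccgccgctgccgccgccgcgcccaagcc

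The GC box was searched as GGGCGG on both strands, where neighbouring matches may share bases. The stretches of Fzd4 and Tcf7l2 held 6 matches each, that of Lgr6 held 1 and that of Lgr4 held 0. GC content was 73.5% for Fzd4, 72.8% for Tcf7l2, 55.6% for Lgr4 and 65.2% for Lgr6. Of the 39 windows of members, 29 held a GC box (74.4%), against 56.8% of the 15163 windows of all matched genes in the table. The TCF/LEF core, searched as CTTTGA, was in 2 of the 39 windows (5.13%, in Lef1 and Wnt5b) and in 12.4% of all windows. TATAAA was in 4 of them (10.3% against 8.47%) and the AP-1 motif, as TGANTCA, in 1 (2.56% against 5.74%). Of these motifs, CTTTGA and TGANTCA can share the letters TGA. The median GC content was 67.3% over windows of members and 59.3% over all windows. A match is a run of letters in a window of this length and no evidence of binding.

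Inside the cell, Tcf7l1, Tcf7l2, Tle2, Tle3 and Tle4 fell by 24 h, and the destruction complex genes Apc and Axin1 were not called. Beta-catenin (Ctnnb1) had 356, 348 and 348 CPM at 0 h, 351, 354 and 359 CPM at 12 h and 226, 247 and 237 CPM at 24 h. The libraries of 24 h lay well below the others, which overlapped. At 24 h 67.4% of its RNA level was left (log2 difference -0.57 ± 0.04, edgeR adjusted p = 5.24e-08), just short of the 1.5-fold needed for a call, and it was called without replicate 2 of 24 h (-0.60) and with scaling to total counts (-0.79), while the correction for length and GC content brought it to -0.41. Apc, the scaffold of the destruction complex, averaged 78.4, 78.2 and 75.8 CPM, and Axin1, a second scaffold, 84.4, 90.7 and 83.5 CPM. Neither was called, with 24 h log2 differences of -0.05 ± 0.05 (edgeR adjusted p = 0.341) and -0.01 ± 0.06 (edgeR adjusted p = 0.841).

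Tcf7l1, a TCF factor that mainly represses (chr6:72626378-72789254), had 66.7, 59.7 and 62.8 CPM at 0 h, 53.3, 55.0 and 55.2 CPM at 12 h and 30.9, 32.5 and 31.3 CPM at 24 h, each time below the one before. Its log2 difference was -0.21 ± 0.04 at 12 h (edgeR adjusted p = 0.00352, short of 1.5-fold) and -0.998 ± 0.05 at 24 h (edgeR adjusted p = 2.81e-09). The call from 12 to 24 h (-0.77) was lost with the correction for length and GC content (-0.57). Tcf7l2, the TCF factor best known from intestine and islets (chr19:55741820-55933654), had 10.95, 11.04 and 12.15 CPM at 0 h, 12.6, 12.4 and 11.7 CPM at 12 h and 4.56, 4.87 and 5.01 CPM at 24 h. Here 0 h and 12 h overlapped, and at 24 h 42.3% of the 0 h level was left (log2 difference -1.24 ± 0.10, edgeR adjusted p = 8.44e-08). Tcf7, a factor of T cells and stem cells, was scarce, with 15, 12 and 19 counts at 0 h, 10, 5 and 6 at 12 h and 19, 28 and 22 at 24 h, and was called only from 12 to 24 h (log2 difference 1.71 ± 0.42, edgeR adjusted p = 0.00255). Lef1, the remaining member of that family, had 1 count in 1 of the 12 h libraries and 0 in the other 8.

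Most Tle genes encode corepressors that bind TCF factors, and Tle5 is a short relative that lacks the repressor's C-terminal part. Tle5 led them per kb (91.4 CPM per kb at 0 h) and averaged 305, 297 and 307 CPM, with overlapping libraries and a 24 h log2 difference of 0.01 ± 0.04 (edgeR adjusted p = 0.861). Tle3 had 69.5, 65.8 and 70.1 CPM at 0 h, 71.6, 68.2 and 73.2 CPM at 12 h and 34.1, 43.5 and 39.4 CPM at 24 h, so that the drop came after 12 h. Its 24 h log2 difference of -0.81 ± 0.07 (edgeR adjusted p = 3.12e-07) went to -0.40 with the correction for length and GC content, which ended the call, and from 12 to 24 h its -0.84 went to -0.44. Tle4 had 23.9, 25.1 and 23.1 CPM at 0 h, 22.5, 21.5 and 21.9 CPM at 12 h and 14.9, 13.8 and 14.9 CPM at 24 h, each time below the one before, with a 24 h log2 difference of -0.73 ± 0.07 (edgeR adjusted p = 4.28e-07).

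Tle2 was scarce and, with Fzd4, was called at 12 h. It had 1.91, 2.40 and 1.63 CPM at 0 h, 1.25, 1.03 and 1.19 CPM at 12 h and 1.08, 0.602 and 0.486 CPM at 24 h. Both later times lay below 0 h and overlapped each other. The 24 h log2 difference was -1.47 ± 0.29 (edgeR adjusted p = 0.000472). The one at 12 h was -0.77 ± 0.20 (edgeR adjusted p = 0.019), and that call was lost in a fit of all 9 libraries and without replicate 2 of 0 h, replicate 2 of 12 h or replicate 3 of 12 h (-0.79 to -0.61). Tle1 averaged 101 CPM at 0 h and 73.3 CPM at 24 h, a log2 difference of -0.47 that was short of 1.5-fold (edgeR adjusted p = 1.04e-06), and Tle6 averaged 2.52 CPM at 0 h and 1.93 CPM at 24 h (log2 difference -0.38, edgeR adjusted p = 0.0531).

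**Figure D5:**
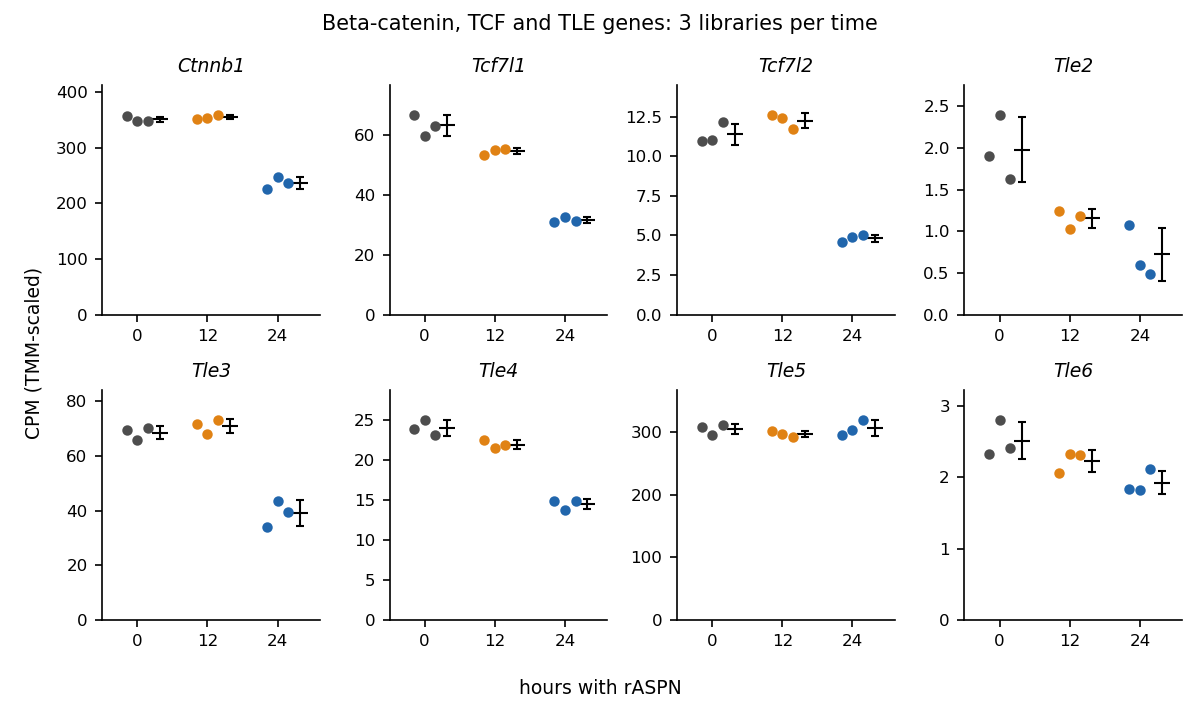
TMM-scaled CPM (y axis, from 0, its own scale in each panel) of Ctnnb1, 2 TCF factors and 5 Tle genes against hours with rASPN (x axis), with a point for each library and mean ± SD (n = 3) beside them. Ctnnb1, both TCF factors, Tle3 and Tle4 stand lowest at 24 h, and Tle5 keeps means of 297 to 307 CPM.

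Other genes of the pathway, from a list of kinases, cofactors, inhibitors, polarity genes and targets, were read from the same fits. Of 56 tested at 24 h, 13 were called lower and 2 higher (23.2% and 3.57%, against the same 16.8% and 12% of all genes), with a median log2 difference of -0.33. At 12 h 1 of 56 was called, higher (1.79%, near the 1.5% of all genes), and from 12 to 24 h 16 were called lower (28.6%, against 15.3% of all genes) and 1 higher (1.79%, against 10.4%). Nuclear cofactors of beta-catenin held 6 of the 13 lower calls among 13 tested (46.2%, against 16.8% of all genes). Bcl9, the adaptor between beta-catenin and Pygo, had 33.5, 30.0 and 31.8 CPM at 0 h and 10.9, 11.9 and 11.1 CPM at 24 h, far apart (log2 difference -1.49, edgeR adjusted p = 8.09e-10). Its relative Bcl9l (-1.09) and the acetyltransferases Ep300 (-1.23) and Crebbp (-1.02) were lower too.

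In the destruction complex group 4 of 16 were called lower (25%, against 16.8% of all genes), among them the kinase Csnk1g2 (log2 difference -0.78), the scaffold Amer1 (-0.97), the Apc relative Apc2 (-1.23) and the tankyrase Tnks2 (-0.63). Frat1, which binds the kinase GSK3, was the single call among 5 cytoplasmic transducers (-1.56, under 2 CPM in every library). Celsr2, a polarity cadherin, was lower at about 1 CPM (-1.41) and was the single call among 12 genes of polarity and alternative receptors. Of 4 secreted or surface inhibitors, 3 passed the adjusted p at 24 h and were short of 1.5-fold, where 8119 of all 11444 genes passed the adjusted p, a share near that of the inhibitors. From 12 to 24 h the inhibitor Tpbg (-0.71) and the polarity cadherin Celsr1 (-0.88) were called lower. Both had their highest libraries at 12 h, with log2 differences against 0 h, none of them called, of 0.45 at 12 h and -0.27 at 24 h for Tpbg and of 0.62 and -0.28 for Celsr1.

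Genes listed as targets of the pathway did not move in a single direction at 24 h. Of 6 tested, 5 passed the adjusted p at 12 h, all higher (782 of 11410 genes passed higher and 396 lower). Against 0 h, 2 passed as higher and 4 as lower at 24 h (3938 and 4181 of 11444 genes). Edn1, the peptide endothelin-1, had 30.5, 30.3 and 30.9 CPM at 0 h, 102, 113 and 104 CPM at 12 h and 61.7, 67.6 and 68.6 CPM at 24 h. It was highest at 12 h with no overlap between times (log2 difference 1.80 at 12 h, edgeR adjusted p = 1.18e-14, and 1.11 at 24 h, edgeR adjusted p = 1.03e-09). Cd44, the hyaluronan receptor, rose to 114, 138 and 120 CPM at 24 h from 52.2, 53.6 and 52.9 CPM at 0 h (log2 difference 1.23, edgeR adjusted p = 1.71e-09). At 12 h its log2 difference was 0.38 (edgeR adjusted p = 3.93e-06), short of 1.5-fold. Cyclin D1 (Ccnd1) was higher than at 0 h in each 12 h library, by a log2 difference of 0.11 short of 1.5-fold, and fell by 0.61 on the log2 scale at 24 h (edgeR adjusted p = 1.61e-07). Sox9, a transcription factor of progenitor cells, had 345, 338 and 356 CPM at 12 h, above its 253, 253 and 254 CPM at 0 h, and 198, 238 and 228 CPM at 24 h, which was called lower than 12 h (log2 difference -0.63, edgeR adjusted p = 2.94e-07). Cldn1 was higher at 12 h (0.34, edgeR adjusted p = 0.000126) and lower at 24 h (-0.25, edgeR adjusted p = 0.00538), both short of 1.5-fold. Tnfrsf19, at a mean of 1.97 CPM at 0 h, was lower at 24 h (-0.57, edgeR adjusted p = 0.0307), also short of 1.5-fold.

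Several of these genes share their locus with a gene annotated on the other strand: Ctnnb1, Fzd5, Fzd6, Tcf7l1, Tle1, Tle2, Wnt5a, Wnt7b and Lef1. The sources used here do not state whether the counting used strand. Without it, reads from the stretch where the exons of such a pair overlap cannot be told apart. The length of that stretch was not measured.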

How the data were processed

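Gene expression was measured by RNA-Seq in 9 MyC-CaP libraries, 3 per time. The authors trimmed reads with Cutadapt, mapped them with STAR (GRCm38) and assigned them to genes with featureCounts. They deposited raw counts, with no normalization, for 15384 protein-coding genes. How those genes were selected, and whether counting used strand, is not given in the sources used here. Groups came from the time in the sample labels.

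For each pair of times, low genes were removed with filterByExpr (minimum count 10), TMM factors were computed for the 6 libraries and edgeR 4.0.16 (R 4.3.3) was run with its quasi-likelihood test, with Benjamini-Hochberg adjustment over all genes tested. Genes with an adjusted p of 0.05 or less and a change of at least 1.5-fold were called. CPM values were TMM-scaled over all 9 libraries, and CPM per kb used exon lengths from GENCODE M21, which held 15374 of the 15384 identifiers. At 24 h the TMM factors were 0.898 to 0.911, against 1.04 to 1.07 at 0 h. Same-time libraries differed in each pair beyond sampling noise (3.41 to 17.5 as chi-square per degree of freedom), and each counted as 1 replicate.

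The members, the list of other pathway genes and the markers were chosen with earlier results of these data known. Some luminal markers are not reported here. Values in every library are given for members called in any comparison with a mean of at least 1 CPM, and for Ctnnb1, Lrp5, Lrp6 and Lef1, and other pathway genes are named where called, at most 4 per role with the greatest change. Tcf7 and Wnt2b counts were given because they were called below 1 CPM. Edn1, Cd44, Bcl9 and Sox9 values by library were added after their values were seen. Cldn1 and Tnfrsf19, which were not called, were named to complete the targets tested. Alternatives were DESeq2 1.42.0, limma-voom (limma 3.58.1), RLE, upper-quartile and total-count scaling, no filter, at least 10 counts in every library, one fit of all 9 libraries, the replicate number as a block, a glmTreat test against 1.5-fold, calls on adjusted p without the fold limit, loess offsets for transcript length and GC content (span 0.3) and leaving out each library. The calculations were tested on simulated data. Promoter sequences are those of RefSeq.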

Additional observations from a re-analysis of the deposited data

How the results depend on the processing

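Of the counts of called members, that at 24 h against 0 h (21) was 16 to 24 over the alternatives, 22 with total-count scaling (1 higher, 21 lower), 17 with the correction for length and GC content (3 higher, 14 lower) and 19 to 21 when a library was left out. At 12 h against 0 h (2) it was 1 in one fit of all 9 libraries, 0 with glmTreat, 7 with the adjusted p alone and 1 to 2 when a library was left out. At 24 h against 12 h (14) it was 23 with the adjusted p alone, 19 with total-count scaling (1 higher, 18 lower) and 10 with the correction for length and GC content (2 higher, 8 lower). The counts of other pathway genes were 11 at 12 h (1 to 2 when a library was left out), 44 at 24 h against 0 h and 44 at 24 h against 12 h with the adjusted p alone, 26 (24 h against 0 h) and 30 (24 h against 12 h) with total-count scaling, and 10 at 24 h against 12 h with glmTreat, with the correction for length and GC content and with that correction plus the replicate block. The cause was not tested, except that glmTreat and the adjusted p alone apply another threshold. At 24 h the adjusted p alone passed most genes, 8119 of 11444 against 0 h and 8124 of 11394 against 12 h. The 24 h counts with it were near those shares. At 12 h it passed 1178 of 11410 genes. Total-count scaling moved the median of all genes to -0.24 (24 h against 0 h) and -0.22 (24 h against 12 h). The share of all genes called under the other alternatives is not given here.

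Log2 differences under every alternative were computed for the 21 members given by library that passed the filter. Among these, signs changed at 12 h against 0 h, for differences near 0 that were not called: Ctnnb1 with total-count scaling (-0.000668), Fzd6 with total-count scaling (-0.00538), with the length and GC correction (-0.00179) and with that correction plus the block (-0.000995), and, when a library was left out, Fzd6 (-0.0245 to 0.0397), Wnt3 (-0.444 to 0.0334), Wnt4 (-0.0549 to 0.0159) and Wnt9a (-0.147 to 0.00878).

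Same-numbered libraries did not deviate together (correlations of -0.10 to 0.06 over 11559 genes), so no shared effect of the replicate number was visible. Whether the numbers stand for a common plating or harvest cannot be read from these correlations. With the replicate number as a block, 2, 21 and 16 members were called at 12 h against 0 h, 24 h against 0 h and 24 h against 12 h. The effect of counting depth on the calls was not tested.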
